A study of Mus musculus with 90 samples.

Results

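Of the 1515 regions that gained DNA methylation in DKO0 relative to TKOL embryonic stem cells (differentially methylated regions, DMRs), 523 (34.5%) lay outside the body of every protein-coding gene but within 50 kb of one. They were picked by position alone, as the DMRs that overlapped no protein-coding gene body of the GENCODE vM1 annotation of mm9 and whose nearest such gene was 1 to 50000 bp away. Of the remaining DMRs, 284 overlapped a gene body and 708 were more than 50000 bp from any protein-coding gene. Peaks of histone H3 lysine 9 trimethylation (H3K9me3), of Uhrf1 and of Trim28 were set against these regions in 3 mouse embryonic stem cell lines. WT cells were of the V65 strain. TKOL and DKO0 cells were of the J1 strain, and both lacked Dnmt3a and Dnmt3b. TKOL is a clonal line that also carried an shRNA against Dnmt1, and DKO0 was derived from it by Cre removal of that shRNA, so that endogenous Dnmt1 returned. All cells used for Uhrf1 additionally carried a FLAG tag on Uhrf1, which was pulled down through the tag. The DMRs were called by the authors between TKOL and DKO0 at passage 15 from 1 bisulfite library each and filtered on Nanopore reads. The sample labels give no passage for the DKO0 cells used for the peaks. The names of the deposited lists mark them as p5 for H3K9me3 and Trim28 and as p3 for Uhrf1, earlier than the passage of the DMRs and not the same for all marks. Each mark had 2 replicate lists per line, plus a list from pooled replicates for TKOL and DKO0 but not for WT. Strain and genotype cannot be told apart in any comparison with WT.

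Dnmt1 copies methylation onto newly made DNA at replication, and Uhrf1 brings it to hemimethylated CpGs and also binds H3K9me3. Trim28 is a scaffold protein that KRAB zinc finger proteins bring to retrotransposons, where it recruits the enzyme that writes H3K9me3. Intracisternal A-particle (IAP) elements are mouse endogenous retroviruses with long terminal repeats (LTRs) that remain mobile, and this pathway keeps them silent in embryonic stem cells. Such elements can lie within reach of genes, and H3K9me3 is known to spread outward from them.

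The sequences below show what the near-gene DMRs were made of, with each CpG in capitals. The first pair are the genomic parts of the reference sequences that the study used for its hairpin amplicons at IAPez and at IAP LTRs, of 177 and 113 bases with 12 and 6 CpGs. They serve here as a yardstick for IAP content, but only a partial one. A DMR over another part of an IAP element, or over a diverged copy, can match neither amplicon. Next comes the 31-bp word found in the most near-gene DMRs, which lies in neither amplicon and holds no CpG. The other 4 are the 300 bases with the most CpGs in the DMR nearest to a gene on its upstream side (DMR_1486, chr2:124655369-124655668), in the one nearest on the downstream side (DMR_583, chr12:89590515-89590814), in the longest (DMR_1426, chr2:77817895-77818194) and in the first in genome order without a peak in any pooled list (DMR_34, chr1:28859330-28859629). All 4 are from the plus strand of mm9.
IAPez amplicon: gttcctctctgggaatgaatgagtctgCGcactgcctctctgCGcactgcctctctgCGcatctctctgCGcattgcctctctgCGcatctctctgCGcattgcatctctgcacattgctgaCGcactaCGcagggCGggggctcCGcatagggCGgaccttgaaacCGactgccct
IAP LTR amplicon: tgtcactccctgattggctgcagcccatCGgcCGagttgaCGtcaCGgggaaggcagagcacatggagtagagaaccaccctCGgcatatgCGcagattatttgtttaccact
most common word: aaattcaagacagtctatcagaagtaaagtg
DMR_1486: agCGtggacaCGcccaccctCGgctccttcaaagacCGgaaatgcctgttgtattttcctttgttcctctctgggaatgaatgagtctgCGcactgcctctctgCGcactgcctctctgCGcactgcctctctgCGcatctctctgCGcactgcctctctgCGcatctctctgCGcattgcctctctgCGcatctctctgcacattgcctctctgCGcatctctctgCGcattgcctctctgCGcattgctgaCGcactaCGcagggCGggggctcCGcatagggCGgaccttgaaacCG
DMR_583: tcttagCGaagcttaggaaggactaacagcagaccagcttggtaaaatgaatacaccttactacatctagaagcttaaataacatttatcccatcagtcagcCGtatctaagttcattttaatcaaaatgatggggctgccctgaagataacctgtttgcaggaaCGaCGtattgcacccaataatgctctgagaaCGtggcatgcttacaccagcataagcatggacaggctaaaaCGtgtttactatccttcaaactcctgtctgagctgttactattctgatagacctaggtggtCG
DMR_1426: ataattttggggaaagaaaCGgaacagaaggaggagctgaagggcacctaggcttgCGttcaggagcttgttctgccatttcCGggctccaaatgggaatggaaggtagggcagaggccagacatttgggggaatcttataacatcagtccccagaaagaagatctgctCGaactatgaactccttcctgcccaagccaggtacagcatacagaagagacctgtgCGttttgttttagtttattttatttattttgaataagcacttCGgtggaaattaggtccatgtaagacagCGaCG
DMR_34: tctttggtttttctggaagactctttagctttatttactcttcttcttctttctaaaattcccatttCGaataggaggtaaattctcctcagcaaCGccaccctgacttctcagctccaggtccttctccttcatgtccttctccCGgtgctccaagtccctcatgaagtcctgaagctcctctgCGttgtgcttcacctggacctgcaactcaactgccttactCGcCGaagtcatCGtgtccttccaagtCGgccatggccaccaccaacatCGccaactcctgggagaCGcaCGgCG
The stretch of DMR_1486 held 21 CpGs, most of them in short repeats of the kind that fill the IAPez amplicon, and the DMR matched that amplicon at 94.7% identity. The stretches of DMR_583, DMR_1426 and DMR_34 held 7, 8 and 12 CpGs, and none of these 3 DMRs matched an amplicon.

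The near-gene DMRs lay on both sides of their genes. Of the 523, 270 (51.6%, 95% Wilson interval 47.3 to 55.9) were upstream of the start of the nearest gene and 253 (48.4%) were downstream of its end. The median distance was 17582 bp upstream and 16550 bp downstream, and the full range was 299 to 49882 bp. There were 56 DMRs (10.7%) within 5 kb of the gene, 99 (18.9%) at 5 to 10 kb, 209 (40.0%) at 10 to 25 kb and 159 (30.4%) at 25 to 50 kb. No DMR was tied between genes. When the nearest gene start was used in place of the nearest body, 460 DMRs kept their gene and 60.4% were upstream, above the interval around 51.6%, so the even split depends on the rule. Besides protein-coding genes, 26 near-gene DMRs (4.97%) overlapped another annotated gene, among them 14 a lincRNA, 7 a processed transcript and 5 a pseudogene. Chromosome 7 held the most near-gene DMRs (52 of its 104 DMRs), followed by chromosome 2 (47 of 103). As a share of its own DMRs, chromosome 19 had the largest (15 of 25) and chromosome 12 the smallest (18 of 103).

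**Figure D1:**
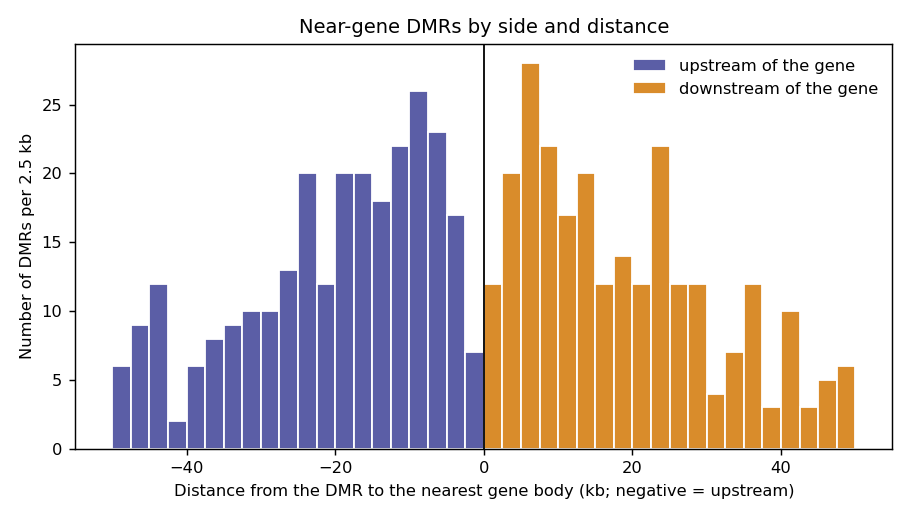
Distance from each of the 523 near-gene DMRs to its nearest protein-coding gene body in kb, in bars of 2.5 kb, with upstream DMRs left of 0 and downstream DMRs right of 0. The 270 upstream and 253 downstream DMRs are spread over the whole range of 50 kb on either side.

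The 523 DMRs had 499 different nearest genes. One gene, Zscan4-ps2, was nearest to 3 DMRs, 22 genes were nearest to 2 and 476 to 1. By symbol, predicted genes (Gm and a number) made up 99 of the 499 (19.8%, against 9.06% of the 22380 protein-coding genes). Olfactory receptors made up 36 (7.21% against 4.97%), vomeronasal receptors 18 (3.61% against 1.47%), zinc finger genes of the Zfp, Zscan and Zkscan symbols 16 (3.21% against 1.78%) and cytochrome P450 genes 8 (1.60% against 0.438%). Solute carriers made up 9 (1.80% against 1.65%), serpins 2 (0.401% against 0.268%), UDP glucuronosyltransferases 1 (0.200% against 0.0938%) and RIKEN genes 22 (4.41% against 6.48%). Many of these families sit in tandem clusters, so their members are not independent draws from the genome, and the shares are given as a description.

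Of all protein-coding genes, 2.23% were the nearest gene of a near-gene DMR. Of 35 imprinted genes matched in the annotation, Igf2, Slc38a4 and Slc22a2 were nearest to 1 DMR each (8.57%), and of 15 two-cell stage genes, Zfp352 and Zscan4d were (13.3%). None of 27 germline genes, 19 pluripotency genes and 25 genes of the heterochromatin and DNA methylation machinery was among them, and lists of this length are too short to read these counts against the background.

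H3K9me3 covered nearly all near-gene DMRs in the pooled lists. A peak overlapped 472 of the 523 in TKOL (90.2%, 87.4 to 92.5) and 481 in DKO0 (92.0%, 89.3 to 94.0), against 88.4% and 89.7% of all 1515 DMRs. In the replicate lists the shares were lower, at 71.7% and 50.7% in TKOL, 77.1% and 56.0% in DKO0, and 54.9% and 53.7% in WT. Over all DMRs the same lists gave 70.4% and 50.2%, 76.2% and 55.9%, and 54.8% and 53.3%, so the near-gene DMRs were close to the background in each. Replicate 1 was higher than replicate 2 in both J1 lines, and the replicate 1 lists there were also longer, with 55126 and 63579 peaks against 32702 and 37315. Nearly every near-gene DMR found in the shorter list was also in the longer one (263 of 265 in TKOL and 286 of 293 in DKO0). The mean share over replicates was 66.5% ± 14.9 (SD, n = 2 lists) in DKO0, 61.2% ± 14.9 (n = 2) in TKOL and 54.3% ± 0.811 (n = 2) in WT. The differences from TKOL of 5.35 points in DKO0 and -6.88 points in WT were within the spread between lists (exact two-sided permutation tests, p = 0.667 and 1.00). Without DKO0 replicate 1, or without TKOL replicate 2, the DKO0 difference became -5.16 points, and without TKOL replicate 1 the WT difference became 3.63 points. With 2 lists against 2 the smallest p this test allows is 0.333.

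In TKOL and DKO0, Uhrf1 peaks were found at fewer near-gene DMRs than H3K9me3. The Uhrf1 shares in WT stood above those in the J1 lines without passing the test, and the WT mean for Uhrf1 was also above that for H3K9me3. The pooled lists held 235 in TKOL (44.9%, 40.7 to 49.2) and 202 in DKO0 (38.6%, 34.5 to 42.9), against 44.5% and 39.8% of all DMRs. The replicate lists gave 32.9% and 21.2% in TKOL, 27.7% and 18.2% in DKO0, and 53.7% and 62.3% in WT. The backgrounds were 31.7% and 22.2%, 25.9% and 17.9%, and 52.4% and 60.7%. Both WT lists were thus above all 4 lists of the J1 lines. The mean was 58.0% ± 6.08 (SD, n = 2 lists) in WT and 27.1% ± 8.25 (n = 2) in TKOL, a difference of 31 points. It reached the smallest p that 2 against 2 lists allow (exact two-sided permutation test, p = 0.333, adjusted p = 1.00 over 6 tests). The WT lists held 30134 and 49156 peaks, against 17444 and 14815 in TKOL and 11440 and 11488 in DKO0. With 11440 peaks taken from every list, the difference was 22.5 points. DKO0 differed from TKOL by -4.11 points (exact permutation test, p = 0.667). That difference turned to 3.06 points with equal numbers of peaks, to 1.72 without TKOL replicate 1 and to 0.669 without DKO0 replicate 2.

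The Uhrf1 sites of WT that were absent from both pooled lists were shorter and poorer in common sequence than those also present in a pooled list. Of the 523 DMRs, 247 had a Uhrf1 peak both in a WT list and in a pooled list of TKOL or DKO0, 102 (19.5%) in a WT list but in no pooled list, and 13 in a pooled list only. The 247 had a median length of 2500 bp, and 220 of them (89.1%) consisted for 50% or more of sequence common among DMRs, as defined below. Of the 102, 45 (44.1%) did, and their median length was 1500 bp. H3K9me3 was present in the pooled TKOL list at 96 of the 102. These counts were not made for the other DMRs.

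In TKOL and DKO0 the Trim28 shares lay between those of H3K9me3 and Uhrf1, while in WT Trim28 had the lowest mean of the 3 marks. The pooled lists held 357 near-gene DMRs in TKOL (68.3%, 64.2 to 72.1) and 307 in DKO0 (58.7%, 54.4 to 62.8), against 65.0% and 57.8% of all DMRs. The replicate lists gave 55.4% and 41.1% in TKOL, 44.4% and 42.3% in DKO0, and 44.9% and 36.5% in WT, beside backgrounds of 53.7% and 42.9%, 45.1% and 43.5%, and 45.4% and 36.3%. The mean was 48.3% ± 10.1 (SD, n = 2 lists) in TKOL, 43.3% ± 1.49 (n = 2) in DKO0 and 40.7% ± 5.95 (n = 2) in WT. The differences from TKOL were -4.97 points in DKO0 and -7.55 points in WT (exact permutation tests, p = 1.00 and 0.667). Without TKOL replicate 1 they were 2.20 and -0.382 points. After adjustment over the 6 comparisons of the 3 marks, every p was 1.00.

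**Figure D2:**
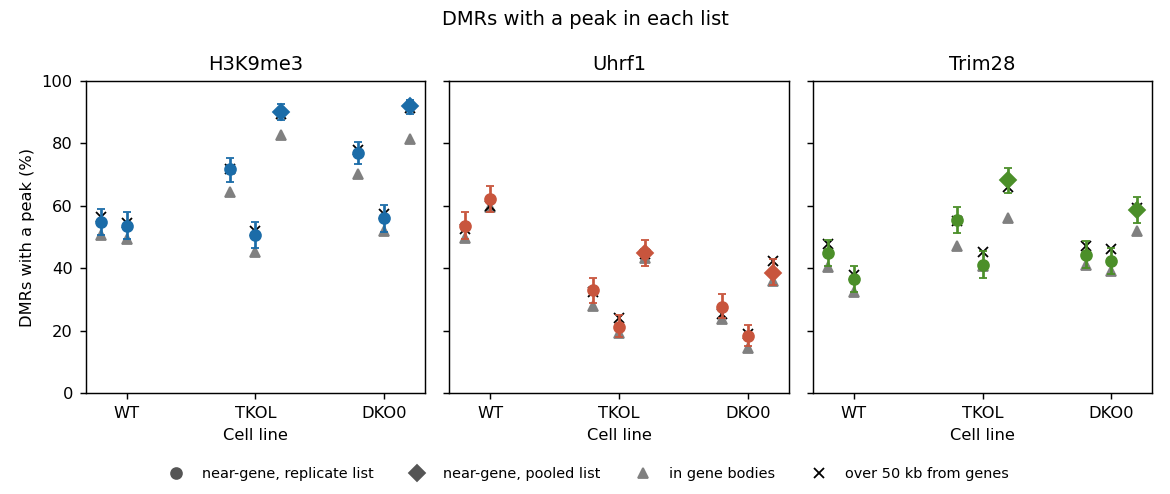
Share of DMRs with a peak (percent, vertical axis) in each list of H3K9me3, Uhrf1 and Trim28, by cell line. Coloured circles are replicate lists and diamonds pooled lists for the 523 near-gene DMRs, with 95% Wilson intervals, triangles are DMRs in gene bodies and crosses DMRs over 50 kb from genes; the 2 Uhrf1 lists of WT stand above those of TKOL and DKO0.

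Pooled and replicate lists were not made alike, and the part of this in their shares was not tested. For H3K9me3 and Trim28, the pooled lists were called against an input library, whereas the peak names of the replicate lists carry no second library. The pooled peaks were also wider. Where a pooled H3K9me3 peak was present, the median near-gene DMR was covered over 100% of its length in TKOL and in DKO0, against 21.3% to 36.6% in the replicate lists. The median span of the overlapping pooled peaks was 5715 bp in TKOL and 6269 bp in DKO0 for H3K9me3, 3201 and 2505 bp for Trim28, and 697 and 687 bp for Uhrf1. Uhrf1 spans had the smallest medians, but reached 13939 bp in TKOL, and H3K9me3 spans went down to 108 bp. Where peaks had to cover 50% of the DMR or more, Uhrf1 was left at 1.91% in TKOL, 1.34% in DKO0 and 4.30% in WT. Only 5 near-gene DMRs shared a pooled H3K9me3 peak with another in TKOL, and also 5 in DKO0.

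In the pooled lists of TKOL and DKO0, every near-gene DMR with a Uhrf1 peak also had H3K9me3, 235 of 235 in TKOL and 202 of 202 in DKO0. Of those without H3K9me3, 0 of 51 in TKOL (upper limit of the Wilson interval 7.00%) and 0 of 42 in DKO0 (8.38%) had Uhrf1. Uhrf1 without H3K9me3 was also rare in the other classes. In gene bodies it was at 2 of 49 DMRs without H3K9me3 in TKOL and 1 of 53 in DKO0. Far from genes it was at 2 of 75 and 0 of 61. In the WT replicate lists, Uhrf1 peaks were not confined to near-gene DMRs with an H3K9me3 peak. Of 349 near-gene DMRs with Uhrf1 in either WT list, 273 (78.2%) had H3K9me3 in either WT list and 76 did not. In the replicate lists of TKOL 191 of 195 had it, and in those of DKO0 160 of 160. These counts were made for near-gene DMRs alone. The WT lists were also longer for Uhrf1 and shorter for H3K9me3 than those of the J1 lines, and the part of this was not tested. In the pooled lists, Trim28 was found at 354 of 472 with H3K9me3 in TKOL (75%) and at 3 of 51 without it (5.88%), and in DKO0 at 303 of 481 (63.0%) and 4 of 42 (9.52%). Where H3K9me3 was present, Trim28 was found at 67.7% and 63.6% of the DMRs in gene bodies and 74.1% and 64.8% of those over 50 kb from genes, and Uhrf1 at 49.8% and 42% near genes, 51.5% and 43.7% in gene bodies and 49.6% and 46.2% far from genes. Near genes, Uhrf1 was in turn nearly always accompanied by Trim28, at 232 of 235 in TKOL (98.7%) and at 193 of 202 in DKO0 (95.5%). Over all DMRs this was much the same, as 657 of the 674 with Uhrf1 in TKOL had all 3 marks, and 575 of the 603 in DKO0. Where Uhrf1 was absent near genes, Trim28 was present at 43.4% and 35.5%. All 3 marks were present at 232 near-gene DMRs in TKOL (44.4%, 40.2 to 48.6) and at 193 in DKO0 (36.9%, 32.9 to 41.1), against 43.4% and 38.0% of all DMRs. H3K9me3 alone was found at 115 (22.0%) and 169 (32.3%), and no mark at 48 (9.18%) and 38 (7.27%), where all DMRs gave 22.8% and 30.6% for H3K9me3 alone and 11.1% and 9.83% for no mark. When a peak in both replicate lists of each mark was required, all 3 marks were left at 14.3% in TKOL and 13% in DKO0.

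Between the pooled lists of TKOL and DKO0, most H3K9me3 sites were shared. H3K9me3 was present in both lines by TKOL and DKO0 at 468 near-gene DMRs, with 13 found in DKO0 only and 4 in TKOL only. Trim28 was shared at 299, with 8 in DKO0 only and 58 in TKOL only. Uhrf1 was shared at 177, with 25 in DKO0 only and 58 in TKOL only. Over the 6 replicate lists of the 3 lines, 233 DMRs (44.6%) had H3K9me3 in every list, 156 (29.8%) Trim28 and 55 (10.5%) Uhrf1, and 41 (7.84%) had a peak in all 24 lists. These counts of shared sites were made for near-gene DMRs alone. With no background over all DMRs beside them, they do not set near-gene DMRs apart.

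Like the DMRs of the other classes, the near-gene DMRs fell into 2 kinds by sequence, and the marks followed that division. For each DMR, the share of its length made of 31-bp words that occur in at least 10 of the 1515 DMRs was computed. This share was 66.9% at the median near-gene DMR. It was 50% or more in 291 (55.6%) and 0 in 109 (20.8%). All 1515 DMRs were close to this, with 50% or more in 54.3% of them and 0 in 20.9%. Of the 291 rich in common words, all 291 had a pooled H3K9me3 peak in TKOL and 290 in DKO0, and 286 (98.3%) and 272 (93.5%) had Trim28. Uhrf1 was found at 209 (71.8%, 66.4 to 76.7) and 181 (62.2%, 56.5 to 67.6). Among the 232 poor in them, H3K9me3 was found at 181 (78.0%) in TKOL and 191 (82.3%) in DKO0, but Trim28 at only 71 (30.6%, 25.0 to 36.8) and 35 (15.1%, 11.1 to 20.3) and Uhrf1 at 26 (11.2%, 7.76 to 15.9) and 21 (9.05%, 6.00 to 13.4). In the WT lists the same division held, with H3K9me3 at 84.2% and 83.5% of the DMRs rich in common words and at 18.1% and 16.4% of the others. Uhrf1 in WT was at 76.3% and 88.0% against 25.4% and 30.2%, and Trim28 at 74.2% and 60.8% against 8.19% and 6.03%. The division was not particular to near-gene DMRs. In the pooled TKOL list, Uhrf1 was at 78.7% of the rich and 14.6% of the poor DMRs in gene bodies. Over 50 kb from genes these shares were 70.1% and 10.6%.

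**Figure D3:**
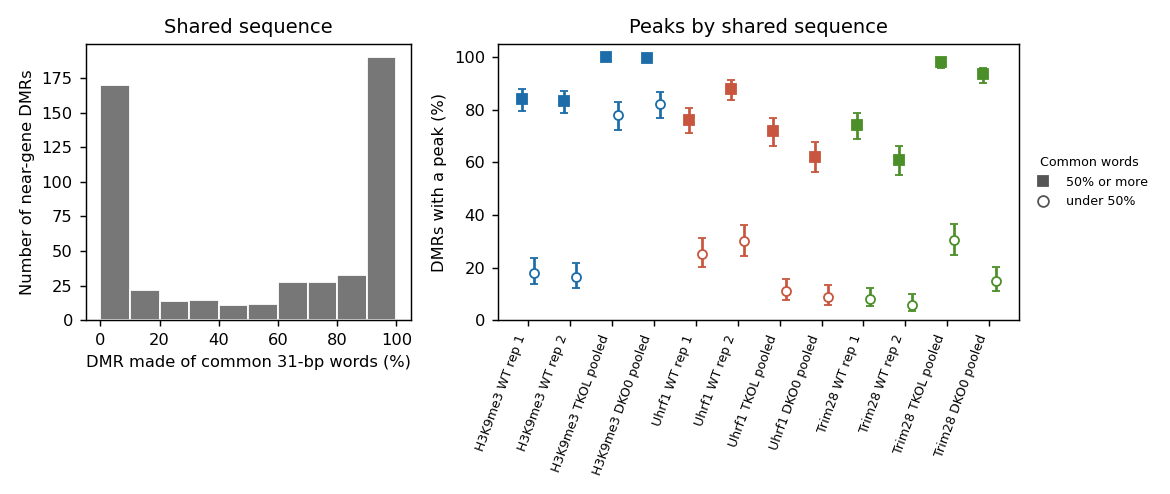
Left, number of near-gene DMRs by the share of their length made of 31-bp words common to at least 10 DMRs (percent), with most of the 523 at either end. Right, share of near-gene DMRs with a peak (percent, with 95% Wilson intervals) in the WT replicate and pooled TKOL and DKO0 lists, for the 291 with 50% or more of common words (filled squares) and the 232 with less (open circles), which are lower in every list shown.

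The height of the H3K9me3 peaks gave an order that depended on the list. In the pooled lists, the median H3K9me3 fold enrichment, the ratio of the signal in a peak to its background, was 9.82 at DMRs rich in common words and 3.86 at the others in TKOL, and 8.73 and 3.84 in DKO0. In the 6 replicate lists the order was opposite, for example 2.43 and 2.84 in TKOL replicate 1 and 2.74 and 3.27 in WT replicate 1. Trim28 behaved like H3K9me3 in the pooled lists, at 6.39 and 3.51 in TKOL and 9.71 and 4.03 in DKO0, whereas Uhrf1 differed little, at 3.10 and 2.98 and at 2.92 and 2.73. In the replicate lists Trim28 mostly kept its order. It was 3.59 and 3.53 in TKOL replicate 1, 5.05 and 4.48 in TKOL replicate 2, and 5.08 and 4.54 in DKO0 replicate 1. DKO0 replicate 2 gave 5.22 and 4.76 and WT replicate 2 gave 4.42 and 3.79. Only WT replicate 1 turned, at 4.29 and 4.57. The part that the input library played in the turn of H3K9me3 was not tested.

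**Figure D4:**
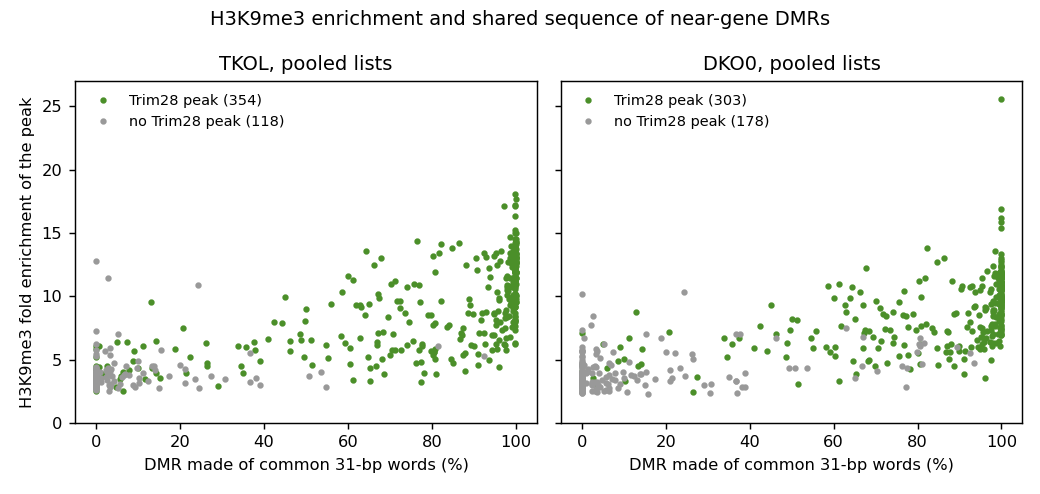
H3K9me3 fold enrichment of the highest overlapping peak (vertical axis) against the share of the DMR made of common 31-bp words (percent) for near-gene DMRs with an H3K9me3 peak in the pooled lists of TKOL (472) and DKO0 (481). Green points also had a Trim28 peak of the same line (354 and 303), and these gather at the right, whereas grey points without Trim28 gather at the left.

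Part of the common sequence was IAP. A match to the IAPez amplicon of at least 80% identity over at least 80% of its length was found in 60 near-gene DMRs (11.5%, 9.02 to 14.5), at a median identity of 90.4% and a highest of 98.3%. A match to the LTR amplicon was found in 96 (18.4%, 15.3 to 21.9), up to 100% identity. Either was present in 132 (25.2%, 21.7 to 29.1), against 28.5% of the DMRs in gene bodies and 32.6% (29.3 to 36.2) of those over 50 kb from genes. The most common 31-bp word was present in 149 near-gene DMRs (28.5%), and in 27.8% and 33.3% of the other classes. All 60 DMRs with an IAPez match had H3K9me3 and Trim28 in the pooled lists of both lines, and Uhrf1 was found at 55 (91.7%) in TKOL and 53 (88.3%) in DKO0. In WT, 56 and 58 of the 60 had H3K9me3, 55 and 60 Uhrf1 and 55 and 50 Trim28. The 96 DMRs with an LTR match had Uhrf1 at 80.2% in TKOL and 71.9% in DKO0. Of the 391 DMRs that matched neither amplicon, 87.5% and 89.5% still had H3K9me3, 59.1% and 48.6% Trim28, and 32.5% and 26.1% Uhrf1. These 391 cannot be read as free of IAP, since the amplicons cover only short parts of an element. Marks by amplicon match were not counted in the other classes, so these shares do not set near-gene DMRs apart. The matches showed no preferred orientation to the gene. IAPez matches ran on the strand of the nearest gene in 34 of 60 (56.7%, 44.1 to 68.4) and LTR matches in 51 of 96 (53.1%, 43.2 to 62.8), with intervals that include an even split on either side of the gene.

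Near-gene DMRs ranged in length from 1000 to 27000 bp with a median of 1750 bp, and 134 had the shortest length of 1000 bp. They covered 1478250 bp in all and held 10 to 414 CpGs, with a median of 33 CpGs, 18 CpGs per kb and a GC content of 45.4%. Medians in gene bodies were 2000 bp and 16.8 CpGs per kb, and over 50 kb from genes 2000 bp and 19 CpGs per kb. Longer near-gene DMRs carried more marks. All 6 pooled lists had a peak at 17 of the 134 DMRs of 1000 bp (12.7%), at 72 of the 268 of over 1000 to 3500 bp (26.9%) and at 83 of the 121 longer ones (68.6%). Common words made up 50% or more of 42.5%, 50.7% and 81.0% of these groups. A longer DMR also offers more bases for a peak to overlap, and the part of length was not tested. The counts by length were made for near-gene DMRs alone, so they do not set near-gene DMRs apart.

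Against DMRs inside gene bodies, the near-gene DMRs more often had H3K9me3. The difference in the pooled lists was 7.50 points in TKOL (95% Newcombe interval 2.64 to 12.8) and 10.6 points in DKO0 (5.75 to 16.0), with near-gene DMRs higher in 6 of 6 replicate lists. Trim28 was higher by 12.3 points in TKOL (5.28 to 19.2), while the 6.59 points in DKO0 had an interval that reached below 0 (-0.568 to 13.7), with 6 of 6 replicate lists in that direction (0.264 to 8.27 points). For Uhrf1 the intervals included 0 in both lines, with 6 of 6 lists higher by 1.86 to 5.07 points. DMRs in gene bodies were less often rich in common words, at 44.7% against 55.6%. Among DMRs rich in them the H3K9me3 shares were alike, at 100% in both classes in TKOL and 99.7% against 100% in DKO0. Among those poor in them, near-gene DMRs remained higher, by 9.23 points in TKOL (0.371 to 18.3) and 16.1 points in DKO0 (7.29 to 24.9). Trim28 in TKOL was likewise higher among the DMRs poor in common words (9.58 points, 0.615 to 18), whereas in DKO0 it was lower among those rich in them (-4.95 points, -8.58 to -0.348). Against DMRs over 50 kb from genes, the interval of every pooled difference included 0, and the differences ran from -3.61 points for Uhrf1 in DKO0 (-9.09 to 1.95) to 2.02 points for Trim28 in TKOL (-3.31 to 7.26). In the replicate lists H3K9me3 was lower near genes than far from them in 6 of 6, with differences of -1.48 to -0.191 points. These intervals cover the number of DMRs and not the spread between cultures, and the lists of all classes come from the same libraries.

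The marks did not change steadily with distance to the gene. H3K9me3 in the pooled lists was found at 92.9% of the 56 DMRs within 5 kb in TKOL and 94.6% in DKO0, and at 91.8% and 93.1% of the 159 at 25 to 50 kb. Uhrf1 ranged from 36.4% (30.1 to 43.1) at 10 to 25 kb to 51.5% (41.8 to 61.1) at 5 to 10 kb in TKOL, and Trim28 from 64.1% to 73.7% over the same bins. The bin of 10 to 25 kb also had the smallest share rich in common words, 50.2%, and that of 5 to 10 kb the largest, 62.6%. Upstream DMRs had H3K9me3 more often than downstream ones in 6 of 6 replicate lists, by 2.26 to 8.37 points, Trim28 in 6 of 6, by 1.29 to 5.29 points, and Uhrf1 in 5 of 6. In the pooled lists, only Uhrf1 in TKOL had an interval above 0 for this difference, at 49.6% upstream against 39.9% downstream (9.71 points, 1.18 to 18), which was -1.76 points in TKOL replicate 2. For H3K9me3 the pooled differences were -1.28 and -0.243 points, opposite in sign to the replicate lists.

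The starts of the genes next to these DMRs carried H3K9me3 more often than gene starts in general, and more so the closer the DMR. An H3K9me3 peak of the pooled list lay within 1 kb of the start of 55 of the 499 nearest genes in TKOL (11.0%) and 65 in DKO0 (13%), against 3.04% and 3.38% of the 22380 protein-coding genes. Where the DMR was within 5 kb, 16 of 56 genes (28.6%) in TKOL and 18 of 56 (32.1%) in DKO0 had such a peak. The share fell to 16.2% and 19.2% at 5 to 10 kb, 8.25% and 10.7% at 10 to 25 kb, and 5.23% and 5.88% at 25 to 50 kb. Only 2 DMRs, upstream of Gm17555 and Gm17558, reached into the window around the start themselves. The genes were picked for lying near DMRs, of which 90.2% in TKOL and 92.0% in DKO0 had H3K9me3. Peaks at a start that also lay over the DMR were not set apart. The fall with distance is therefore given as a description. Trim28 was found at 8.02% of the nearest gene starts in TKOL (6.00% of all genes) and 3.41% in DKO0 (2.34%). Uhrf1 was found at 4.61% in TKOL (2.75%) and 8.22% in DKO0 (9.26%). For these marks, the shares within 5 kb rested on 3 to 6 genes. A peak over the DMR extended into the body of the gene itself at 7 near-gene DMRs in TKOL and 12 in DKO0 for H3K9me3, including those next to Gm6190, Gm10991, Olfr1055, Vnn3, Ltn1 and Foxk2 in both lines, at 1 (Olfr1055) in each line for Trim28 and at none for Uhrf1. No expression values were analysed here, so these are positions of peaks only.

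**Figure D5:**
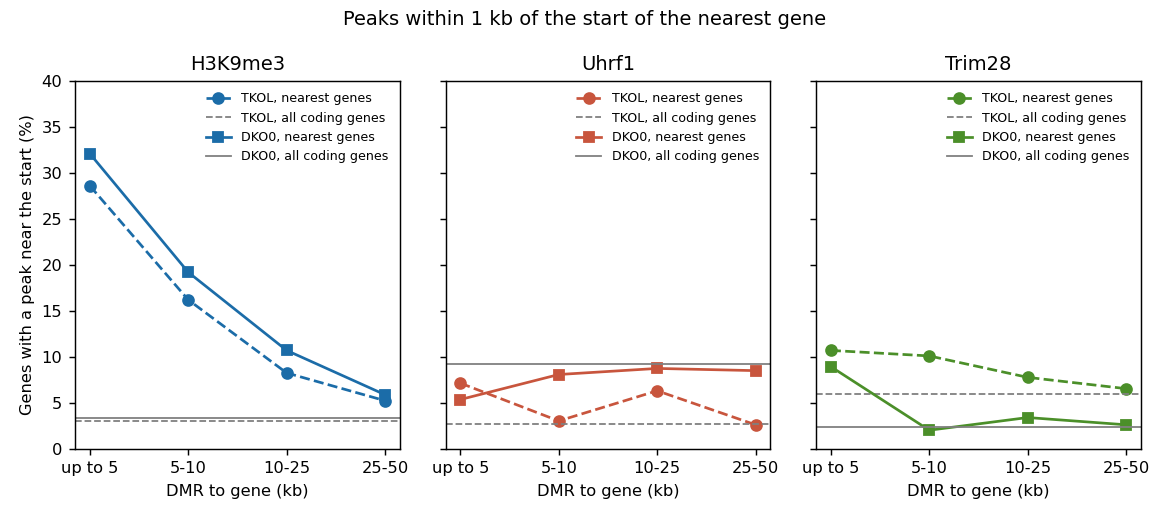
Share of nearest genes with a peak within 1 kb of the gene start (percent, vertical axis) by distance of the DMR to the gene (kb), for the pooled TKOL (dashed, circles) and DKO0 (solid, squares) lists of each mark. Grey lines give the share over all 22380 protein-coding genes; the H3K9me3 shares fall from 28.6% and 32.1% within 5 kb to 5.23% and 5.88% at 25 to 50 kb.

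The 4 DMRs nearest to a gene on each side were of both kinds. On the upstream side they were DMR_1486, 523 bp from Gm17555, DMR_451, 598 bp from Gm17558, DMR_2330, 1169 bp from Rpl21-ps14, and DMR_2322, 1280 bp from Igf2. On the downstream side they were DMR_583, 299 bp from Gm6190, DMR_1443, 381 bp from Olfr1055, DMR_2177, 602 bp from Gm10991, and DMR_2064, 794 bp from Cyp3a41b. Common words made up 99.8% of DMR_1486, 99.8% of DMR_451, 63.0% of DMR_2330, 99.9% of DMR_1443 and 99.9% of DMR_2177, and none of the other 3.

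DMR_1486 (chr2:124653251-124656500, 96 CpGs), whose CpG-rich stretch is printed above, had H3K9me3 in every list, with a fold enrichment of 2.92 and 3.12 in WT, 2.51 and 3.57 in TKOL, 2.31 and 2.87 in DKO0, and 13.7 and 11.7 in the pooled TKOL and DKO0 lists. Its Trim28 fold enrichment was 5.30 and 4.77 in WT, 3.95 and 5.97 in TKOL, 6.10 and 5.46 in DKO0, and 8.66 and 13.2 pooled. Uhrf1 had a peak in both WT lists (4.50 and 3.28), in replicate 1 but not replicate 2 of TKOL (4.32) and DKO0 (3.28), and in the pooled lists (3.92 and 2.79). The replicate values of TKOL spanned those of WT for H3K9me3, while both DKO0 values were below WT for H3K9me3 and above it for Trim28. The same gene, Gm17555, was nearest to a further DMR, DMR_1485, 27023 bp upstream, which also had H3K9me3 and Trim28 in every list.

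DMR_1443 (chr2:86185001-86186500, 51 CpGs) lay past the 3' end of the olfactory receptor gene Olfr1055. It had an H3K9me3 fold enrichment of 11.9 in the pooled TKOL list and 11.4 in the pooled DKO0 list, and a Trim28 fold enrichment of 9.32 and 13.2. It was the single near-gene DMR whose Trim28 peak ran into the gene body. Its H3K9me3 values in the replicate lists were 2.50 and 2.93 in WT, 2.57 and 3.13 in TKOL, and 2.41 and 3.54 in DKO0, so every list had a peak. DMR_2177, past the end of Gm10991, matched the IAPez amplicon at 89.1% and had the highest pooled Trim28 value of the 8, at 19.4 in DKO0.

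The 3 without common words had H3K9me3 at lower pooled values and no Trim28. DMR_583 (chr12:89590251-89591500, 11 CpGs) had H3K9me3 in replicate 1 of TKOL (2.42) and DKO0 (2.31) and in the pooled lists (4.04 and 3.40), and no other peak. DMR_2064, next to the cytochrome P450 gene Cyp3a41b, had it in replicate 1 of DKO0 (2.02) and in the pooled lists (3.92 and 3.52), and Uhrf1 in WT replicate 2 (2.43). DMR_2322 (chr7:149854001-149856000, 38 CpGs, 52.1% GC) lay 1280 bp upstream of Igf2, the paternally expressed gene for a fetal growth factor, over the lincRNA Igf2as. It had H3K9me3 in TKOL replicate 1 (3.60), DKO0 replicate 1 (2.69) and the pooled lists (3.85 and 4.29), Uhrf1 in WT replicate 2 (2.93), and no Trim28 peak in any of the 8 lists. None of the 3 had H3K9me3 in WT or in replicate 2 of TKOL or DKO0.

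The other DMRs next to imprinted and two-cell stage genes were of both kinds. DMR_985 (chr15:96808751-96811000, 75 CpGs) lay 14254 bp downstream of the amino acid transporter gene Slc38a4 and matched the IAPez amplicon at 91.0%. It had H3K9me3 and Trim28 in every list, at pooled fold enrichments of 12.1 and 9.87 for H3K9me3 and 11.8 and 17.8 for Trim28 in TKOL and DKO0, and Uhrf1 in every list except TKOL replicate 2. DMR_1095, 18305 bp upstream of the organic cation transporter gene Slc22a2, had no common words and H3K9me3 only, at 3.37 in WT replicate 1, 2.72 in TKOL replicate 1, 2.49 in DKO0 replicate 1, and 3.37 and 3.33 in the pooled TKOL and DKO0 lists. DMR_1842, 5250 bp long and 1358 bp downstream of the zinc finger gene Zfp352, had H3K9me3 in replicate 1 of TKOL (2.56) and DKO0 (2.76) and pooled (2.98 and 3.37). DMR_2178, 36242 bp downstream of Zscan4d, had it at 2.98 and 2.72 pooled and at 2.85 in TKOL replicate 1. Neither had Uhrf1 or Trim28 in any list. The 3 DMRs around Zscan4-ps2, annotated as protein-coding despite its name, lay 31909 bp upstream (DMR_2179) and 15541 and 29291 bp downstream (DMR_2180 and DMR_2181). DMR_2179 had pooled H3K9me3 at 5.04 and 6.66 and DMR_2181 at 4.46 and 3.89, whereas DMR_2180 had a single peak in the 24 lists, pooled DKO0 Trim28 at 3.30.

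The 3 longest near-gene DMRs were DMR_1426 (27000 bp, 23569 bp upstream of the splicing factor gene Cwc22), DMR_302 (21750 bp, 36171 bp downstream of D10Wsu102e) and DMR_304 (20250 bp, 9945 bp downstream of Aldh1l2). DMR_1426 was CpG-poor, with 5.96 CpGs per kb and 2.54% of common words. It had H3K9me3 only in replicate 1 (3.15) and pooled (3.03) DKO0, and one Trim28 peak in WT replicate 2 (2.79). DMR_1425, 3069 bp upstream of the same gene and 2000 bp long, had no peak in any of the 24 lists. DMR_302 and DMR_304 on chromosome 10 held 414 and 397 CpGs, and each matched the LTR amplicon. A single pooled H3K9me3 peak covered both, of 89408 bp in TKOL and 80482 bp in DKO0, so that they share 1 value per line, 6.08 and 6.68. In the replicate lists DMR_304 had H3K9me3 in all 6 and DMR_302 in DKO0 replicate 1 only (1.69). Gm14418 and Gm14406 on chromosome 2 were each flanked by 1 DMR on either side. H3K9me3 was pooled at 3.48 and 3.76 in DMR_1539 and 4.49 and 3.49 in DMR_1540 around Gm14418, and at 6.54 and 8.10 in DMR_1543 and 10.3 and 7.15 in DMR_1544 around Gm14406.

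The highest pooled H3K9me3 value in DKO0 was not shared by the replicate lists. DMR_766 (chr13:112293751-112294750), 13432 bp upstream of Gpbp1, had a fold enrichment of 25.6 in the pooled DKO0 list and 18.1 in the pooled TKOL list, with Trim28 at 7.51 and 9.10. It had no peak of any mark in any of the 18 replicate lists. All of its 31-bp words (100%) occurred more than once in mm9, at a median of 1307 places. The next highest, DMR_417 (14210 bp upstream of Olfr43, 16.9) and DMR_1016 (8381 bp upstream of Gm4758, 16.2), had H3K9me3 and Trim28 in every list. Their words were also repeated, at a median of 948 and 712 places.

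A small group had no mark. Of the 523 near-gene DMRs, 32 (6.12%) had no peak in any of the 6 pooled lists, and 25 of these (4.78% of the 523) none in all 24. No such count was made over all DMRs. In a single line, no mark was found at 9.18% of near-gene DMRs in TKOL and 7.27% in DKO0, against 11.1% and 9.83% of all DMRs. The 32 had a median length of 2000 bp and a CpG density of 11.2 per kb against 19 for the others. Their median share of common words was 0 against 71.8%, and none matched an amplicon. The nearest gene was a predicted gene at 18 of the 32. The first in genome order were DMR_34 (22154 bp upstream of Gm597, over the pseudogene Gm5697), DMR_53 (14548 bp downstream of Gm9915, with a single Uhrf1 peak in WT replicate 1) and DMR_62 (41842 bp downstream of Obfc2a). Repetition divided the group, a count that was added after the values were seen. In 18 of the 32, 50% or more of the 31-bp words occurred at more than 1 place in mm9, at low copy number, for example at a median of 11 places in DMR_1773 next to Gm13304 and 12 in DMR_2202 next to Gm4175. In others nearly every word was unique, as in DMR_34 (3.69% repeated) and DMR_62 (0). This was not particular to the group. Of the near-gene DMRs under 50% of common words that had a mark in a pooled list, 108 of 200 (54.0%) were as repeated. That compares with 56.2% of the 32, and the median was 2 places per word in both sets. Among all near-gene DMRs 90.3% of the words were repeated at the median DMR, against 77.0% in gene bodies and 83.1% over 50 kb from genes.

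Near-gene DMRs next to predicted genes had H3K9me3 less often than the rest. It was found at 79 of 105 (75.2%) in TKOL and 81 (77.1%) in DKO0, against 94.0% and 95.7% of the other 418, a difference of -18.8 points (-28.0 to -11.0) and -18.6 points (-27.6 to -11.2). In the WT lists the difference was -15.0 and -13.6 points. Trim28 differed by -18.6 points in DKO0 (-28.8 to -7.98) and by -7.95 points in TKOL, where the interval included 0 (-18.4 to 1.88). Uhrf1 differed by -12.6 points in DKO0 (-21.7 to -2.21) and by -4.98 points in TKOL (-15.1 to 5.68). In the WT lists Uhrf1 differed by -4.07 (-14.6 to 6.46) and -13.6 points (-24.1 to -3.19). Next to olfactory receptors, by contrast, H3K9me3 was found at 36 of 37 DMRs in TKOL and 37 of 37 in DKO0, and next to vomeronasal receptors at 19 of 19 in both. Next to cytochrome P450 genes it was found at 7 and 8 of 8 and Trim28 at 2 of 8 in each line, and next to zinc finger genes at 17 of 18 and Trim28 at 8 and 7 of 18, where all near-gene DMRs gave 68.3% and 58.7% for Trim28. These families are small and were not tested.

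Trim28 without H3K9me3 of the same line was found at 7 near-gene DMRs. Trim28 alone was at 3 of them in TKOL (0.574% of the 523) and 4 in DKO0 (0.765%). Over all 1515 DMRs it was at 3 in TKOL (0.198%) and 6 in DKO0 (0.396%). The first of the 7 in genome order were DMR_1403 near Stam2, DMR_2180 near Zscan4-ps2 and DMR_2225 near Gm6003. Each had a Trim28 fold enrichment of 3.30 in the pooled DKO0 list, where the lowest at a near-gene DMR was 3.09. Only DMR_1403 also had a replicate peak, 3.45 in DKO0 replicate 1. The values on either side of the 50 kb limit are given as a description. Just inside it, DMR_1118 (49336 bp from Zfp40) and DMR_2324 (49882 bp from Gm6471) had pooled H3K9me3 at 6.99 and 5.94 and at 13 and 11 in TKOL and DKO0. Just outside, DMR_2165 (50154 bp from the imprinted gene Zim1) had 3.95 and 3.98 and DMR_2079 (50219 bp from Nxph1) had 5.50 and 6.06.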

How the data were processed

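H3K9me3 and Trim28 ChIP-seq and Uhrf1 ChIPmentation lists from 18 libraries, 2 per mark and line, were analysed with 6 lists from pooled replicates. The authors aligned reads to mm9 with BWA, used GATK for duplicate removal and MACS2 for broad peak calling; pooled replicates were called together with input. The authors deposited for each peak a fold enrichment, a ratio to the background that MACS2 estimates, and the -log10 of its q-value. The lists hold no read counts, so depth is unknown and intervals cover the number of DMRs only. Labels do not say whether replicates are separate cultures, so p-values measure the spread between lists. The DMR positions, but not their methylation values, came from the supplement of the study, together with the amplicon references.

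Members, lists and gene groups were chosen with earlier results of these data known. A DMR had a mark if a peak overlapped it by at least 1 bp. Genes were taken from GENCODE vM1 (mm9). Named DMRs were the 4 nearest to a gene on each side, the 3 longest, the 3 with the highest pooled DKO0 H3K9me3, the first 3 without a mark and the first 3 with Uhrf1 or Trim28 but no H3K9me3, those at the 50 kb limit, those next to listed genes, and those of the genes nearest to most DMRs. Shares carry 95% Wilson and differences Newcombe intervals; mean shares of lists were compared by exact two-sided permutation with Benjamini-Hochberg adjustment over 6 tests. Alternatives were an overlap of 50%, a -log10 q of at least 5, equal peak numbers, presence in both replicate lists, leaving out each replicate, a replicate block, 25 kb as limit, and gene starts. Overlaps and distances, checked against bedtools 2.31.1, were the same for 1515 DMRs and 24 lists, and were tested on simulated data. Amplicons were aligned with blastn 2.17.0. Python 3.11.15, numpy 2.4.6, scipy 1.17.1, pysam 0.24.0 and matplotlib 3.10.9 were used. WGBS, MeDIP, Nanopore and hairpin data were not analysed here.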

Additional observations from a re-analysis of the deposited data

How the results depend on the processing

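Where peaks had to cover 50% of the DMR or more, the share of near-gene DMRs with H3K9me3 moved to 7.55% in WT, that with Uhrf1 to 4.30% in WT, 1.91% in TKOL and 1.34% in DKO0, that with Trim28 to 2.49%, 44.4% and 34.2%, and that with all 3 marks to 1.91% in TKOL and 1.34% in DKO0. With a -log10 q of at least 5, H3K9me3 moved to 6.12% in WT, 66.9% in TKOL and 76.5% in DKO0, Uhrf1 to 9.46%, 7.46% and 8.41%, Trim28 to 10.1%, 51.8% and 46.7%, and all 3 marks to 6.69% in TKOL and 7.27% in DKO0. When a peak in both replicate lists was required, the TKOL and DKO0 shares were 50.3% and 54.7% for H3K9me3, 16.8% and 15.3% for Uhrf1, 37.7% and 38.2% for Trim28, and 14.3% and 13% for all 3. With equal numbers of peaks Uhrf1 in WT was 42.4%, and within 25 kb H3K9me3 in WT was 53.3%. By gene start, 60.4% of DMRs were upstream. With one replicate left out, H3K9me3 ranged from 53.7% to 54.9% in WT, 50.7% to 71.7% in TKOL and 56.0% to 77.1% in DKO0, Uhrf1 from 53.7% to 62.3%, 21.2% to 32.9% and 18.2% to 27.7%, and Trim28 from 36.5% to 44.9%, 41.1% to 55.4% and 42.3% to 44.4%.

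The differences DKO0 minus TKOL with one replicate left out ranged from -5.16 to 15.9 points for H3K9me3, -9.94 to 1.72 for Uhrf1 and -12.1 to 2.20 for Trim28, and those of WT minus TKOL from -17.4 to 3.63, 25.1 to 36.8 and -14.7 to -0.382. The Uhrf1 difference of DKO0 was 0 at 50% overlap and turned to 3.06 points with equal numbers of peaks; the cause was not tested. Replicate numbers are shared between lines, but nothing says that they mark a shared culture or day. Correlations of replicate deviations with TKOL ranged from -0.0188 for Uhrf1 in WT to 0.437 for H3K9me3 in DKO0. With the replicate block the differences from TKOL stayed 5.35 points (exact permutation p = 0.500) and -6.88 (1.00) for H3K9me3, -4.11 (0.500) and 31 (0.500) for Uhrf1, and -4.97 (1.00) and -7.55 (0.500) for Trim28 in DKO0 and WT, where 0.500 is the smallest p it allows. All other alternatives kept each share within the SD of its replicate lists and each difference in its direction. In some only the sign was kept. The H3K9me3 difference of WT was -0.0956 points with equal numbers of peaks. The Uhrf1 difference of DKO0 was -0.191 points with a -log10 q of at least 5. No list carries depth, WT has no pooled list, and most DMRs hold repeated sequence, so reads could be placed at several copies.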
